A study of Mus musculus with 23 samples.

Results

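The thymus is built by an epithelium, a small share of its cells, that instructs the lymphocytes growing within it. Expression of 8 genes by which this epithelium is commonly recognised was followed through 23 bulk RNA-seq libraries. They are Foxn1, Ccl25, Prss16, Aire, Krt5, Krt8, Epcam and Il7, taken by their gene symbols from a table of 24475 genes, and all 8 were found. The libraries fall into 3 groups. Whole thymus of healthy C57BL/6 mice gave 6 controls. The other 17 libraries came from spleens with T-cell acute lymphoblastic leukemia (T-ALL) from hosts without Rag2 and Il2rg, labelled BALB/c, that had received a newborn thymus under the kidney capsule. The donor thymus was wild type (B6.Ly5.1) for 14 of these spleens (WT T-ALL) and was without Notch3 for 3 (Notch3 KO T-ALL), through a β-galactosidase insertion in the opening coding exon. Such hosts make no T, B or NK lymphocytes of their own, and they keep their red cells, myeloid cells and stroma. The labels give no age.

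Thymic epithelium comes in a cortical and a medullary form. FOXN1 is the transcription factor without which neither form matures. Cortical cells attract and expand progenitors with the chemokine CCL25 and the cytokine interleukin 7, and the protease encoded by Prss16 takes part in making the peptides on which CD4 cells are selected. Medullary cells use AIRE to transcribe tissue-restricted antigens. Keratin 8 is the keratin of cortical cells, keratin 5 that of medullary cells, and EPCAM is an adhesion protein of most epithelia and of some leukocytes. In bulk tissue, fewer cells of a type and less RNA per cell cannot be told apart. Thymus against leukemic spleen also sets apart tissue, disease and host strain at once, and the part of each cannot be told apart.

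Levels are scaled RPKM (read density per transcript length and library size, set by the authors so that the upper quartile of each library is 10) unless the log2 scale is named. Log2 values are log2(scaled RPKM + 1), the form in which the table was deposited, so a log2 difference of a gene under 1 understates its fold change. Between 10154 and 11011 genes reached a scaled RPKM of 1 in a library. The thymus controls had summed levels of 7 thymocyte genes of 2890.0 to 4010.0, against 303.0 to 1260.0 (WT T-ALL) and 524.0 to 1240.0 (Notch3 KO T-ALL). Hemoglobin genes held 0.009% to 0.117% of the summed level in thymus, 0.087% to 5.923% in WT T-ALL, which overlaps thymus, and 4.051% to 15.522% in Notch3 KO T-ALL. Notch3 itself was at 2.59 to 3.74 on the log2 scale in Notch3 KO T-ALL, at 3.17 to 5.78 (WT T-ALL) and at 2.62 to 4.29 (thymus). A whole-gene value does not test an insertion, and host cells carry an intact gene, so this level does not check the label. A set of 9 libraries (thymus controls 5 and 6, WT T-ALL 3, 4, 5 and 7, and Notch3 KO T-ALL 1 to 3) stood apart by Sco2 (a mitochondrial copper chaperone), at 2.3 to 3.92 on the log2 scale against 0 to 1.0 in the other 14. They also stood apart by Nr2c2ap, at 3.48 to 4.63 against 2.11 to 2.87. Sco2 overlaps other genes on the opposite strand. The labels name no batch, so the sets are called here libraries with high or low Sco2. All 3 Notch3 KO T-ALL libraries are in the high set.

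The regions just ahead of the transcription starts are shown for Ccl25, because its level parted from that of the other genes, and for Aire. In RefSeq on build GRCm38.p6, 6 of the 8 genes had a promoter entry, and Prss16 and Il7 had none. Ccl25 had 2 starts 24378 bases apart. Each sequence below is the 250 bases that end at the base before the start, written 5′ to 3′ on the strand of the gene. Capitals mark GACGC or its reverse complement GCGTC (the core of FOXN1 binding motifs) and TATAAA on the strand of the gene (the core of a TATA box).

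Ccl25 start 1, chr8:4324960-4325209, + strand: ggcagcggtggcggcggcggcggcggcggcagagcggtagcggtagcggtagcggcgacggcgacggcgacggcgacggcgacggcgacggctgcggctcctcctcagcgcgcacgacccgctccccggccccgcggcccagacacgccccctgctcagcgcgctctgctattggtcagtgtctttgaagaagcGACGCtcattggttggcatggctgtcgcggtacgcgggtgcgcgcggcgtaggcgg

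Ccl25 start 2, chr8:4349338-4349587, + strand: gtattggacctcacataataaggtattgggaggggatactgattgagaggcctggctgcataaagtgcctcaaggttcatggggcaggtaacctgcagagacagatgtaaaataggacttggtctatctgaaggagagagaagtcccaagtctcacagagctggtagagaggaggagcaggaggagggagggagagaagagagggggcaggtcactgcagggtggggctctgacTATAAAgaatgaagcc

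Aire, chr10:78043611-78043860, - strand: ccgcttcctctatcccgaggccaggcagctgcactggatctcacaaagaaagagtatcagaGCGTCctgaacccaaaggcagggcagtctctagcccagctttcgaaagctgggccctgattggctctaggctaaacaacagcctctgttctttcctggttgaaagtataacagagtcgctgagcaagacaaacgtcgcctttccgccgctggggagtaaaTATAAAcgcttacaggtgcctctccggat

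The Ccl25 windows differ in base composition. The upstream one holds 45 CpG dinucleotides, an observed to expected CpG ratio of 1.3, with 1 GACGC match whose leading base is at -56 from the start. The downstream one holds 0 CpG and a TATAAA at -16. The Aire window has 11 CpG, the reverse form GCGTC at -189 and TATAAA at -29. Neither motif was found in the windows of Foxn1, Krt5, Krt8 and Epcam. Among 32851 windows of this length, 22.6% held GACGC on either strand, 7.6% held TATAAA, and the median CpG ratio was 0.37. A match of so short a motif is a description of these letters and not a binding site. The upstream start of Ccl25 (gene on chromosome 8, 4325210 to 4360020, + strand) lies within Elavl1, an RNA-binding protein gene on the opposite strand from 4285382 to 4325413, which is expressed in every library.

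**Figure D1:**
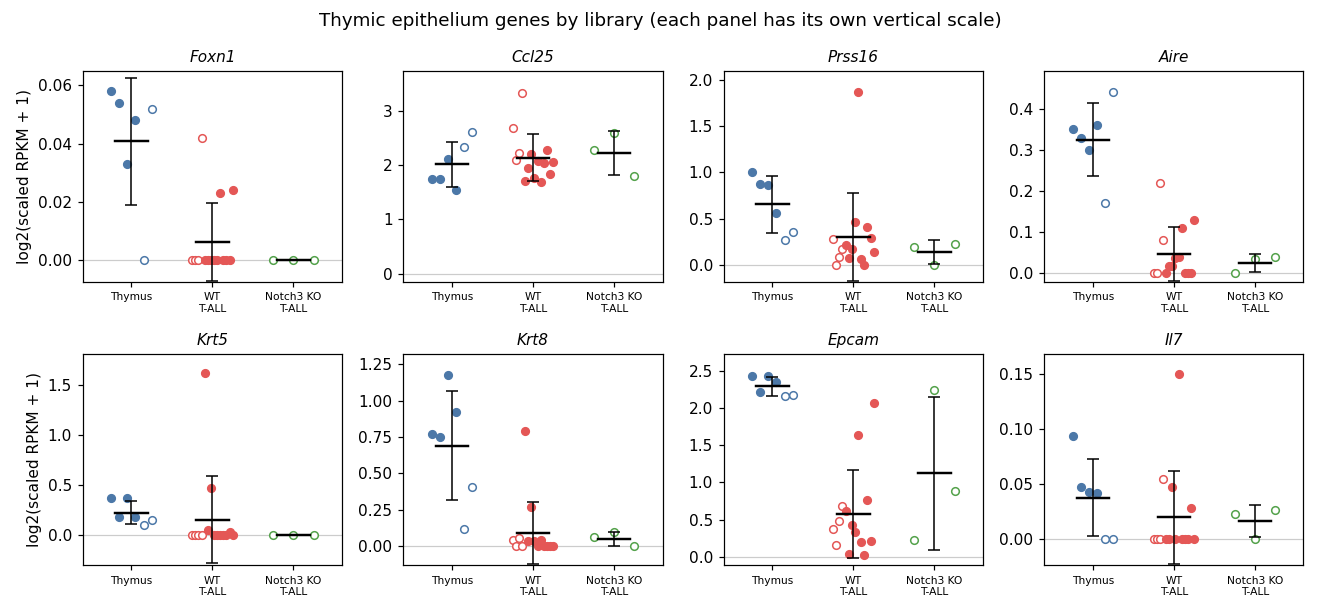
Level of each of the 8 genes in each library, on the log2(scaled RPKM + 1) scale, for 6 thymus controls (blue), 14 WT T-ALL (red) and 3 Notch3 KO T-ALL (green). Lines are means, bars are SD, open circles are libraries with high Sco2, and vertical scales differ between panels. Epcam of the thymus controls lies above all 14 WT T-ALL, Aire above 13 of them, while Ccl25 of the groups overlaps.

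The groups ranked the genes differently. By mean level in thymus, Epcam (3.91) and Ccl25 (3.18) led, followed by Krt8 (0.659), Prss16 (0.607), Aire (0.255), Krt5 (0.17), Foxn1 (0.0287) and Il7 (0.0267). The lowest levels of Epcam and Ccl25 in thymus, 3.45 and 1.9, were above the highest of any other of these genes, 1.26 for Krt8. Krt8 and Prss16 overlapped, as did Foxn1 and Il7. In WT T-ALL the order became Ccl25 (3.63), Epcam (0.635), Prss16 (0.323), Krt5 (0.179), Krt8 (0.077), Aire (0.0335), Il7 (0.0144) and Foxn1 (0.00443). The ranks of Krt5 and Krt8 rest on WT T-ALL 14 and 48. Without these their means were 0.00506 and 0.0122, below Aire at 0.0381. The Prss16 mean leans on WT T-ALL 110 (2.67), beside a median of 0.134. In Notch3 KO T-ALL, Ccl25 (3.8) and Epcam (1.58) again stood at the top, and Foxn1 and Krt5 were listed at 0 in all 3 libraries.

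Of the 8 genes, 4 were lower in WT T-ALL than in thymus (Foxn1, Aire, Krt8 and Epcam) and 0 were higher, by limma with Benjamini-Hochberg adjusted p under 0.05. Only Ccl25 and Epcam passed the filter, which asks for a level of 1 or more in 3 libraries. Among the 11919 genes that passed it, 22.3% were called lower and 29.3% higher. The other 6 genes take their p-values from the fit over all 19183 genes with a value above 0, in which 15.6% were called lower. The same 4 genes were lower in Notch3 KO T-ALL than in thymus, where 16.3% of filtered genes were called lower, 21.2% were called higher, and 11.0% were called lower without the filter. Every WT T-ALL library lay below every thymus control for 1 of the 8 genes (Epcam), which held for 4.63% of the 19183 genes. For Notch3 KO T-ALL this held for 4 (Prss16, Aire, Krt5 and Krt8), against 12.9%. The comparisons share the thymus controls. Both exact permutation tests over libraries have a floor, 2.58e-05 for WT T-ALL and 0.0119 for Notch3 KO T-ALL.

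The libraries keep the trace of single reads. In 1708 of 1890 low genes (90.4%) the values of all libraries were whole multiples of what 1 read is worth, within 0.1 of a read. From these steps, reads could be given for Foxn1, Prss16, Krt5, Krt8 and Il7, but not for Ccl25, Aire and Epcam. A read was worth more in shallower libraries, relative to thymus control 1 by 2.255 times in thymus control 5 and 3.617 times in thymus control 6. Intervals on reads cover counting error only, since reads from amplified libraries are not independent molecules. Where a group held 0 reads, its level was set at that of 3 reads. Such a fold leaves out the counting error of the thymus reads.

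Foxn1 (chromosome 11, 78357577 to 78386558, - strand) was the least expressed of the 8 genes in WT T-ALL. Its levels in thymus controls 1 to 6 were 0.0407, 0.0381, 0.0229, 0.0335, 0 and 0.0368. These rest on 4, 3, 2, 3, 0 and 1 reads. In WT T-ALL it was above 0 in 3 of 14 libraries, at 0.0295 in WT T-ALL 7, 0.0159 in WT T-ALL 111 and 0.0166 in WT T-ALL 202, with 1 read in each. The groups overlapped, since control 5 was listed at 0 and WT T-ALL 7 lay above control 3. The mean log2 value fell by 0.034 (SE 0.0079, limma adjusted p = 0.00166, two-sided exact permutation p = 0.00106). Pooled over libraries, 13 reads in thymus against 3 in WT T-ALL gave a ratio of 10.9 (exact 95% interval 3.0 to 59.7). All 3 Notch3 KO T-ALL libraries held 0 reads. Set at 3 reads over the group, the gene would be 2.39-fold lower there than in thymus. The limma difference was -0.041 (adjusted p = 0.0107), and the exact permutation p was 0.0595. Within the libraries with high Sco2 alone the call was lost in both comparisons, with adjusted p of 0.705 and 0.455, and thymus then consisted of controls 5 and 6, with 1 Foxn1 read between them.

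Aire (chromosome 10, 78030022 to 78043610, - strand) separated thymus from leukemic spleen most evenly among the low genes. Thymus controls 1 to 6 were at 0.271, 0.255, 0.23, 0.284, 0.127 and 0.361. In WT T-ALL the range was 0 to 0.162, with 6 of 14 libraries at 0, and 13 of 14 lay below every thymus control. WT T-ALL 5, at 0.162, was the exception, since it lay above control 5. The log2 difference was -0.28 (SE 0.033, limma adjusted p = 1.25e-06, two-sided exact permutation p = 5.16e-05). Notch3 KO T-ALL 1 to 3 were at 0, 0.0244 and 0.0281, all below every control, a difference of -0.3 (adjusted p = 0.000103). The exact permutation p of 0.0119 is the smallest that 84 splits allow. Within the libraries with high Sco2 the differences were -0.23 and -0.28 with adjusted p of 0.121 and 0.059.

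Further regulators of the thymic anlage were set beside these transcription factors. Pax1 and Hoxa3 did not pass the filter, and they are named here after their values were seen. Pax1, which acts in the pharyngeal pouch from which the thymus forms, held 66 reads over the 6 controls and 0 over all 17 leukemic spleens. With each leukemic group set at 3 reads, it was 55.4-fold lower in WT T-ALL and 12.1-fold lower in Notch3 KO T-ALL (limma without the filter, adjusted p = 2.29e-08 and 9.8e-06). Hoxa3, a homeobox gene of the same pouches, had 52 reads in thymus, 11 in WT T-ALL and 13 in Notch3 KO T-ALL, with log2 differences of -0.21 (adjusted p = 4.65e-06) and -0.14 (adjusted p = 0.0161).

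Ccl25, ligand of the receptor CCR9, showed no detectable difference between leukemic spleen and thymus. Its levels in thymus controls 1 to 6 were 2.34, 2.36, 3.31, 1.9, 4.07 and 5.09. In WT T-ALL the lowest, median and highest were 2.23, 3.17 and 9.09, and Notch3 KO T-ALL 1 to 3 were at 3.87, 5.06 and 2.48. All 3 groups overlapped, with 12 of 14 WT T-ALL libraries inside the range of thymus. The log2 difference was 0.13 (95% interval -0.304 to 0.558, limma adjusted p = 0.626, exact permutation p = 0.564) in WT T-ALL. It was 0.21 (interval -0.411 to 0.839, adjusted p = 0.597, exact permutation p = 0.464) in Notch3 KO T-ALL. These intervals leave room for a moderate difference in either direction. Scaling decided the sign, since quantile normalization gave -0.023 and -0.0028, and equal sums without mitochondrial and hemoglobin genes gave -0.18 and -0.13.

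Ccl25 was higher on average in the libraries with high Sco2 of both large groups, a description since the sets were formed from the data. In thymus the log2 values of the controls with high Sco2 were 2.34 to 2.61, and those of the 4 others 1.54 to 2.11. In WT T-ALL the 4 libraries with high Sco2 had a mean of 2.59 (2.1 to 3.34) and the 10 others a mean of 1.96 (1.69 to 2.28). These ranges overlapped. With the set as a term in the fit, Notch3 KO T-ALL was 0.22 below thymus on the log2 scale in place of above (adjusted p = 0.514). Elavl1, whose opposite strand covers the upstream Ccl25 start, was at 19.4 to 57.8 (thymus), 22.3 to 86.6 (WT T-ALL) and 21.8 to 74.0 (Notch3 KO T-ALL), above Ccl25 in every library. The kit keeps the strand, but the sources used here do not give whether the counting did, and no whole-read step could be found for Ccl25. Sco2, by which the sets were formed, also overlaps genes on the opposite strand. The part of Elavl1 reads in the Ccl25 level was not tested.

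**Figure D2:**
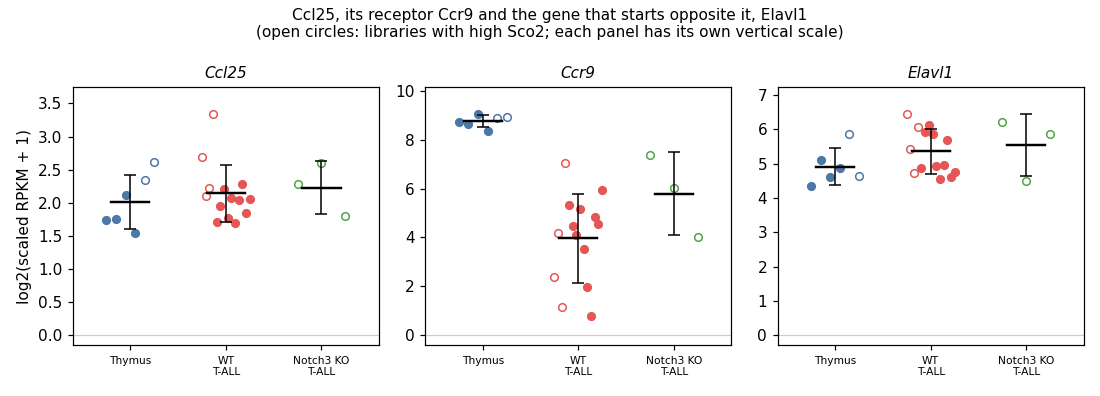
Log2(scaled RPKM + 1) of Ccl25, of its receptor Ccr9 and of Elavl1, which starts opposite Ccl25, in each library of the 3 groups, with mean (line) and SD (bar). Open circles are libraries with high Sco2. Ccr9 of every leukemic spleen lies below that of every thymus control, whereas Ccl25 and Elavl1 of the groups overlap.

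The receptor of the ligand was lower in leukemic spleen. Ccr9, which brings progenitors and thymocytes toward CCL25, was at 325.0 to 529.0 (thymus), 0.746 to 133.0 (WT T-ALL) and 15.0 to 164.0 (Notch3 KO T-ALL). No leukemic spleen reached the lowest control. The log2 differences were -4.8 (adjusted p = 9.27e-06) and -2.97 (adjusted p = 0.0258). Of the 7 receptors of epithelial signals, all passed the filter, and in WT T-ALL 4 were lower (Ccr9, Ccr7, Il2rg and Cxcr4) and 1 was higher (Notch1), beside 22.3% and 29.3% of all filtered genes. The list median was -0.57, against 0.08 over all genes tested. Ccr7, which guides maturing thymocytes to the medulla, fell by 2.61 and Il2rg, the shared cytokine receptor chain, by 0.88. The hosts are without Il2rg, so host cells of the leukemic spleens carry no intact gene. The part of this in the Il2rg level was not tested. Cxcr4, the receptor of CXCL12, fell by 0.53 on the log2 scale (adjusted p = 0.0182). Notch1, which receives the epithelial ligand DLL4, rose by 1.87 (adjusted p = 1.58e-06), from 20.1 to 56.4 in thymus to 52.9 to 172.0 in WT T-ALL. In Notch3 KO T-ALL 4 were lower (Ccr9, Ccr7, Il7r and Il2rg) and 1 was higher (Notch1, by 1.91), beside 16.3% and 21.2% of all filtered genes, with a list median of -0.89 against 0.08. Kit, the stem cell factor receptor, was not called in either comparison (0.47 and 0.42, adjusted p = 0.3 and 0.567).

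Il7 was close to the detection limit everywhere. Thymus controls 1 to 4 were at 0.0672, 0.0334, 0.0303 and 0.0295, and controls 5 and 6 at 0. In WT T-ALL 4 of 14 libraries were above 0, with 0.11 in WT T-ALL 110 the highest, above every control. Notch3 KO T-ALL 1 to 3 were at 0.0159, 0 and 0.0188. These levels stand for 11, 12 and 2 reads in the 3 groups. The differences of -0.018 and -0.021 on the log2 scale were not called (limma adjusted p = 0.498 and 0.635), and a difference was not detectable at this depth. Its receptor chain Il7r was at 13.6 to 23.8 in thymus and 1.69 to 86.5 in WT T-ALL (-0.57, adjusted p = 0.451). In Notch3 KO T-ALL Il7r was at 1.18, 0.857 and 10.8, and it fell by 2.46 on the log2 scale against thymus (adjusted p = 0.0318). Of 8 stromal growth factors and cytokines, only Flt3l passed the filter. This ligand of the progenitor receptor FLT3 fell by 1.0 and 0.86 (adjusted p = 3.48e-05 and 0.00742). Under the filter, Kitl, the ligand of KIT, was higher by 0.36 and 0.71 (adjusted p = 0.0118 and 0.00181), with 32, 578 and 273 reads in the 3 groups. Bmp4, a growth factor of the thymic mesenchyme, was at 0.015 (adjusted p = 0.45) in WT T-ALL and at 0.081 (adjusted p = 0.00515) in Notch3 KO T-ALL, on 9 reads in each against 1 in thymus. Kitl and Bmp4 are named after their values were seen.

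Prss16 (chromosome 13, 22002173 to 22009742, - strand), the thymus-specific serine protease of cortical cells, was lower in most leukemic spleens but was not called. Thymus controls 1 to 6 were at 1.02, 0.846, 0.817, 0.474, 0.209 and 0.279, on 66, 44, 47, 28, 6 and 5 reads. In WT T-ALL the lowest, median and highest were 0, 0.134 and 2.67. The highest, WT T-ALL 110 with 126 reads, lay above every control, while 9 of 14 libraries lay below all of them. The log2 difference was -0.35 (adjusted p = 0.174, exact permutation p = 0.102), and without WT T-ALL 110 it was -0.47 (adjusted p = 0.000619). WT T-ALL 110 also stood out by granulocyte genes (S100a8, S100a9, Camp, Ngp and Prg2), with a summed level of 81700.0 against a WT T-ALL median of 2070.0, and their part in the Prss16 value was not tested. Notch3 KO T-ALL 1 to 3 were at 0.146, 0 and 0.173, below every control. That difference of -0.52 was not called by limma over all groups (adjusted p = 0.191), while the exact permutation p was 0.0238 and the fit of these 2 groups alone gave an adjusted p of 0.0418. Quantile normalization also called it (-0.71, adjusted p = 0.0356). Within the libraries with high Sco2 alone Prss16 was at -0.18 in WT T-ALL and -0.17 in Notch3 KO T-ALL (adjusted p = 0.249 and 0.238).

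The other cortical genes separated into those all but confined to thymus and those that were not. Psmb11, the β5t subunit of the thymus proteasome of cortical epithelium, held 87 reads in thymus, 1 in 14 WT T-ALL libraries and 0 in Notch3 KO T-ALL. By level it was at 0.0283 to 0.203 in thymus, and the log2 difference was -0.18 in both comparisons (limma without the filter, adjusted p = 1.2e-06 and 0.000185). Tbata, a gene named for thymus, brain and testis, was at 0.328 to 2.5 in thymus and at most 0.0658 in WT T-ALL, and fell by 1.25 (adjusted p = 1.76e-07). It passed the filter through the thymus controls only, so a difference in this direction was built in. Ctsl, cathepsin L, a protease of cortical epithelium and also of macrophages, fell by 2.15 (adjusted p = 3.93e-05), from 61.3 to 103.0 in thymus to 4.0 to 35.4 in WT T-ALL. Notch3 KO T-ALL 1 to 3 had Ctsl at 9.89, 88.4 and 18.0, of which the second is inside the range of thymus. Of the 6 cortical genes 4 passed the filter. In WT T-ALL Tbata and Ctsl were lower and 0 were higher. For Notch3 KO T-ALL 2 were lower and Cxcl12, a chemokine of many stromal cells that passed the filter through leukemic spleens only, was higher by 1.49 (adjusted p = 0.0013). Of all filtered genes 22.3% and 16.3% were lower in the 2 comparisons, and with genes that passed in this way the counts are a description of the list. Dll4, the Notch ligand of cortical epithelium and of endothelium, had 19, 99 and 33 reads in the 3 groups and was not called (0.051 and 0.11, adjusted p = 0.18 and 0.0579).

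Krt8 (chromosome 15, 101996698 to 102004482, - strand) was lower in leukemic spleen apart from a pair of libraries. Thymus controls 1 to 6 were at 0.7, 0.687, 1.26, 0.888, 0.0831 and 0.333. In WT T-ALL 7 of 14 libraries were at 0 and 5 were at 0.0234 to 0.0371. The remaining WT T-ALL 14 and 48 were at 0.727 and 0.204, within the range of thymus. The log2 difference was -0.6 (SE 0.12, adjusted p = 0.00047, exact permutation p = 0.000568). Pooled reads gave 7.09 times more in thymus (95% interval 5.3 to 9.58), and 57.3 times more with WT T-ALL 14 and 48 left out. That choice was made after their values were seen, so the second ratio is a description. Notch3 KO T-ALL 1 to 3 were at 0.0436, 0.0672 and 0, below every control, with a log2 difference of -0.64 (adjusted p = 0.0087) and 19.8 times more reads in thymus (interval 8.34 to 61.8). Within the libraries with high Sco2 the differences were -0.24 and -0.21 and were not called (adjusted p = 0.0752 and 0.0879). Mean levels there were 0.208 in thymus, on 7 reads, 0.0171 in WT T-ALL and 0.0369 in Notch3 KO T-ALL.

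Krt5 (chromosome 15, 101707070 to 101712898, - strand) depended on the same libraries. Thymus controls 1 to 6 were at 0.288, 0.132, 0.291, 0.133, 0.0684 and 0.11. In WT T-ALL 10 of 14 libraries were at 0, WT T-ALL 36 and 128 were at 0.0386 and 0.0221, and WT T-ALL 14 and 48 were at 2.07 and 0.384, above every control. With all libraries the difference was not called (-0.068, adjusted p = 0.78). WT T-ALL held 184 reads of Krt5 with those 2 libraries and 5 without them. They were picked out after their values were seen, so results without them are a description. Without those 2 libraries the difference was -0.22 (adjusted p = 1.57e-05). Leaving out WT T-ALL 14 alone gave -0.18 (adjusted p = 0.0159). Without both, pooled reads stood 21.0 times higher in thymus (95% interval 8.48 to 67.3), against 0.753 times with all libraries. Notch3 KO T-ALL held 0 reads of Krt5 in all 3 libraries. Set at 3 reads over the group, Krt5 would be 10.1-fold below thymus. The exact permutation p was 0.0357, while limma gave an adjusted p of 0.567 in the fit over all groups and 0.0187 in the fit of these 2 groups alone. Within the libraries with high Sco2, which leave out WT T-ALL 14 and 48, all 7 leukemic spleens were at 0 and both thymus controls held 2 reads.

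WT T-ALL 14 and 48 also carried genes of other organs. The summed level of 5 hepatocyte genes (Alb, Apoa1, Apoa2, Ttr and Ahsg) was 379.0 in WT T-ALL 14 and 56.2 in WT T-ALL 48, against a WT T-ALL median of 1.13 and a thymus range of 0.139 to 0.444. The sum of 4 kidney tubule genes was 26.4 and 3.35 against a median of 0.303, and that of 4 other keratinocyte genes was 5.22 and 1.84 against 1.04. Krt14, the partner of keratin 5, held 123 reads in WT T-ALL, 104 of them in a single library, and 6 in thymus. Foxn1 was at 0 in both libraries, Aire was at 0 and 0.0123, and Psmb11 was at 0. The part of liver, kidney or skin RNA in the keratin values was not tested.

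**Figure D3:**
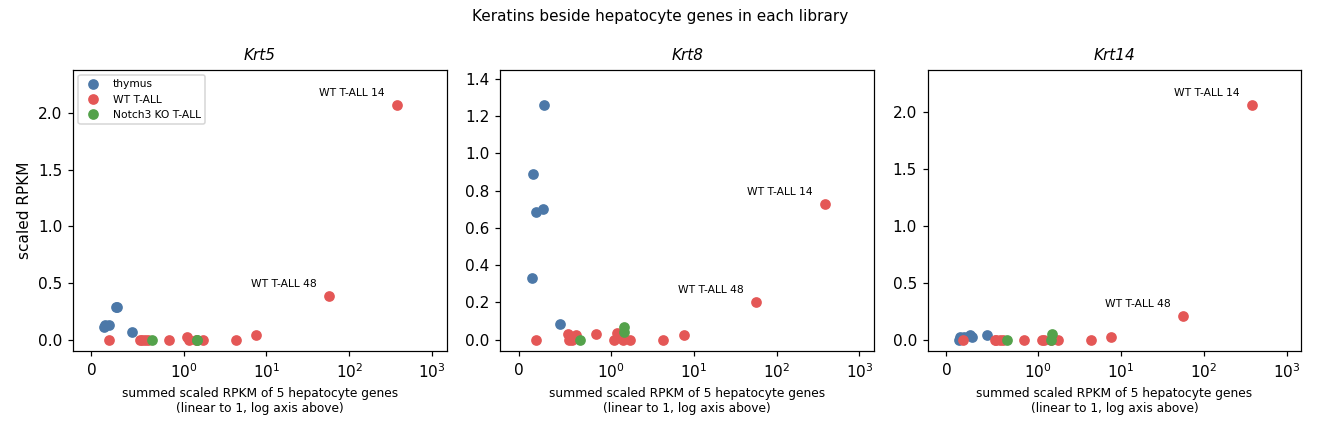
Level in scaled RPKM of Krt5, Krt8 and Krt14 (vertical) against the summed level of 5 hepatocyte genes (horizontal, linear to 1 and logarithmic above) in each of the 23 libraries. WT T-ALL 14 and 48 lie at the far right at 379.0 and 56.2, with the highest Krt5 and Krt14 of all libraries, while the thymus controls lie at the left with Krt8 up to 1.26.

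Epcam (chromosome 17, 87635979 to 87651129, + strand) had the largest difference of the 8 genes on the log2 scale. Thymus controls 1 to 6 were at 4.41, 3.61, 4.4, 4.08, 3.45 and 3.5, a narrow range. In WT T-ALL the lowest was 0.0215, and the 2 highest were 2.1 in WT T-ALL 110 and 3.18 in WT T-ALL 202, so that all 14 lay below every control. The log2 difference was -1.72 (SE 0.27, limma adjusted p = 1.91e-05), and the exact permutation p of 2.58e-05 is the smallest that 38760 splits allow. By mean level Epcam was 6.15 times higher in thymus. Krt8, Aire and Foxn1 had ratios of 8.56, 7.6 and 6.47, which are not ranked here, since those of Krt8 and Foxn1 rest on a few leukemic libraries. Notch3 KO T-ALL 1 to 3 were at 0.172, 3.71 and 0.858, of which the second lies within the range of thymus. That difference was -1.17 (SE 0.39, adjusted p = 0.0222, exact permutation p = 0.0476). It was lost without Notch3 KO T-ALL 1 (-0.73, adjusted p = 0.211) or without Notch3 KO T-ALL 3 (-1.06, adjusted p = 0.0982), and also with the set of libraries by Sco2 as a term (-1.04, adjusted p = 0.0612). Notch3 KO T-ALL 2 further held a summed level of 4 pancreatic acinar genes of 148.0, against 0.945 to 1.9 in thymus and 0.841 to 16.5 in WT T-ALL. WT T-ALL 110 held summed dendritic cell genes of 12.7, against 1.35 to 3.44 in thymus. The tested genes of that list passed the filter through leukemic spleen only. The sum of WT T-ALL 202, which had the higher Epcam, is not given here. The part of these cells in Epcam was not tested.

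Other medullary and general epithelial genes moved less evenly. Of the 8 medullary genes 3 passed the filter. In WT T-ALL 2 were lower, the tight junction gene Cldn4 by 1.23 (adjusted p = 0.02) and Spib, a transcription factor also of B cells and plasmacytoid dendritic cells, by 0.85 (adjusted p = 0.00039). The costimulator Cd80 was higher by 0.55 (adjusted p = 0.0459). Spib passed the filter through thymus and Cd80 through leukemic spleen, each in the group where it was high, so only Cldn4 was free to differ in either direction, and 22.3% of all filtered genes were lower and 29.3% higher. Of these 3 filtered genes only Spib was called in Notch3 KO T-ALL, lower by 0.95 on the log2 scale (adjusted p = 0.00564). In that comparison 16.3% of all filtered genes were lower and 21.2% higher. Fezf2, the other regulator of tissue-restricted antigens, held 7 reads in thymus and 0 in all 17 leukemic spleens. Set at 3 reads over the group, it would be 5.88-fold lower in WT T-ALL. Its log2 difference was -0.069 in both comparisons (limma without the filter, adjusted p = 0.000405 and 0.0118). The other 4 medullary genes under the filter differed in direction. Ccl21a, a chemokine whose reads near-identical copies can share, was at -0.22 in WT T-ALL (adjusted p = 0.0407) and 0.09 in Notch3 KO T-ALL (adjusted p = 0.656). Tnfrsf11a, the receptor RANK, was at 0.25 and 0.37 (adjusted p = 0.0824 and 0.0833), and Cldn3 and Krt14 were not called in either comparison. Of 7 general epithelial genes 3 passed the filter and 0 were called, with Krt18, the partner of keratin 8, at -0.57 and -0.56 (adjusted p = 0.0777 and 0.268), and Cdh1, E-cadherin, at 0.43 and -0.11 (adjusted p = 0.409 and 0.908). Esrp1, an epithelial splicing regulator under the filter, was lower by 0.19 in both (adjusted p = 1.41e-07 and 2.94e-05). Esrp1 is named after its values were seen, and the other general epithelial genes under the filter, Krt19, Trp63 and Cldn7, were not called in either comparison. Of 5 tuft-type genes 0 passed the filter. Of 5 tissue-restricted antigens that AIRE induces, only Mup1 passed it, at 0.69 and adjusted p = 0.33. The summed level of these antigens was 0 to 0.199 in thymus and 42.7 in WT T-ALL 14, the library with the highest hepatocyte genes. Mup1 is itself a liver gene.

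**Figure D4:**
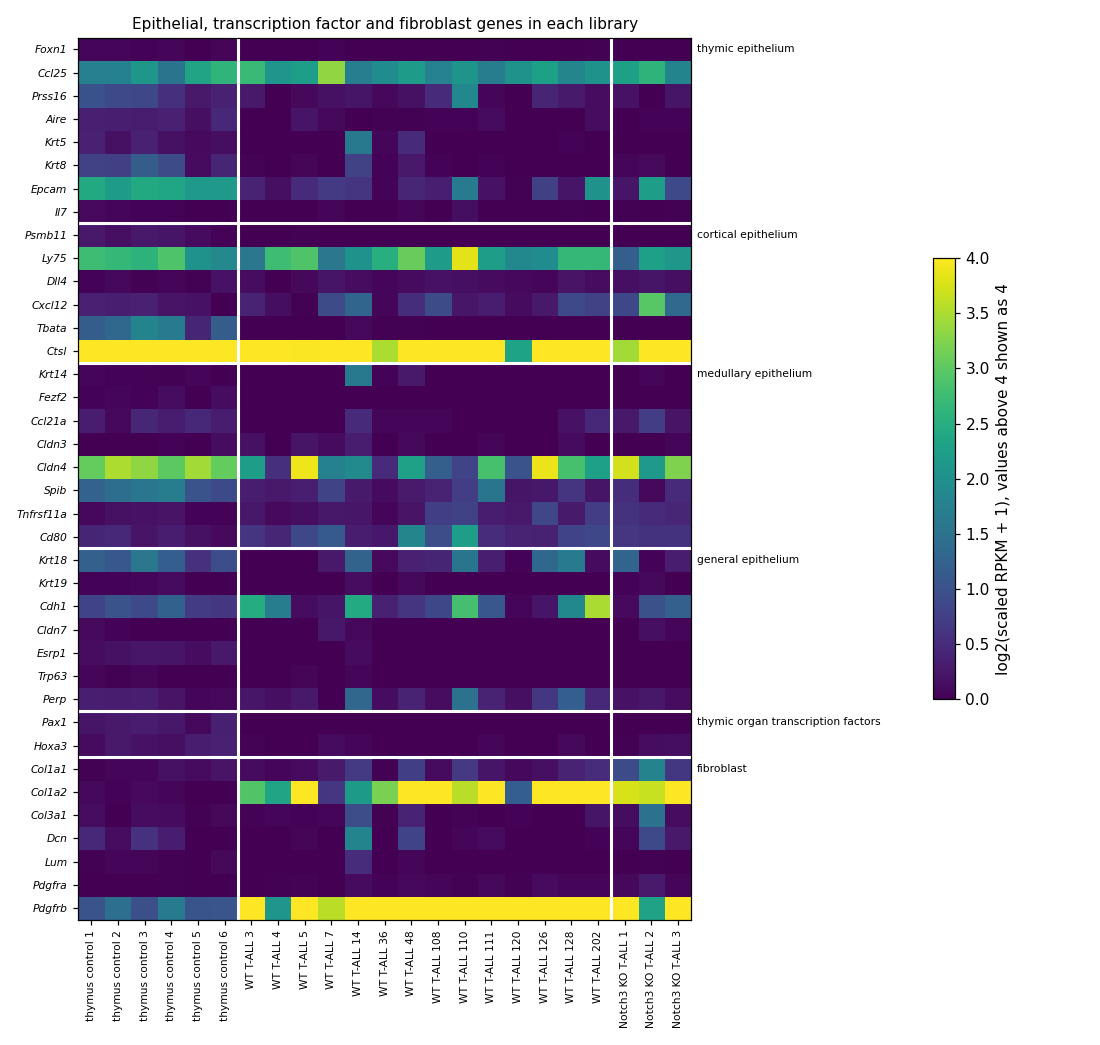
Log2(scaled RPKM + 1) of the 8 thymic epithelium genes and of cortical, medullary and general epithelium, fibroblast genes and Pax1 and Hoxa3 (rows) in each of the 23 libraries (columns), with values above 4 drawn as 4. Epcam is brighter in the 6 thymus columns at the left than in every WT T-ALL column, Krt8 and Prss16 are weaker in thymus controls 5 and 6 than in 1 to 4, and Ccl25 runs through all columns.

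The signals by which lymphocytes induce the medulla were tested as a list of 8 genes, of which 7 passed the filter. In WT T-ALL 2 were lower and 2 higher, where 22.3% and 29.3% of all filtered genes were, so the counts single out nothing about the list. CD40 ligand (Cd40lg), which T cells present to medullary epithelium, fell by 2.64 (adjusted p = 2.71e-09), and the kinase Map3k14 of the noncanonical NF-κB pathway fell by 0.9 (adjusted p = 6.31e-05). The lymphotoxin receptor Ltbr rose by 1.34 (adjusted p = 0.00597) and the RANK ligand Tnfsf11 rose by 0.99 (adjusted p = 0.00331). Cd40lg fell by 2.76 and Map3k14 by 0.79 in Notch3 KO T-ALL (adjusted p = 1.18e-06 and 0.00915), and 0 were higher. Of all filtered genes 16.3% were lower and 21.2% higher in that comparison. Cd40lg passed the filter through thymus only and Ltbr through leukemic spleen only, each in the group where it was high.

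Marker lists of the other cells of both tissues moved as well. Against thymus, 4 of 5 macrophage genes were higher in WT T-ALL and 5 of 5 in Notch3 KO T-ALL, and their summed level was 5.3 to 42.0 (thymus), 15.5 to 265.0 (WT T-ALL) and 192.0 to 290.0 (Notch3 KO T-ALL). Their median log2 difference was 1.44 and 3.05, against 0.08 over all genes. Of 7 thymocyte genes 5 were lower in both, with medians of -2.48 and -2.98. These counts stand beside 29.3% and 21.2% of all filtered genes called higher and 22.3% and 16.3% called lower. Of 6 erythroid genes 5 and 6 were higher, but 5 of them passed the filter through leukemic spleen only, as did Col1a2, 2 endothelial and all 4 dendritic cell genes that passed. The B cell genes Cd79a and Ms4a1, which passed the filter through thymus only, were lower in both comparisons, Cd79a by 1.68 and 1.63 (adjusted p = 1.09e-08 and 8.17e-06) and Ms4a1 by 1.45 and 1.43 (adjusted p = 2.59e-07 and 7.76e-05). Of 7 fibroblast genes, Col1a2 and Pdgfrb passed the filter and both were higher. The fibroblast genes under the filter were not called in WT T-ALL, at -0.035 (Dcn) to 0.19 (Col1a1). In Notch3 KO T-ALL Col1a1 (1.01, adjusted p = 0.000479) and Pdgfra (0.14, adjusted p = 0.00331) were higher, while Col3a1, Dcn and Lum were not called. Of 4 endothelial genes tested 3 were higher in both comparisons and 1 was lower in WT T-ALL, while 2 of 4 dendritic cell genes were higher in both, and none of the splenic reticular stroma, parathyroid and adipocyte genes passed the filter. Since the scale of each library is set by all its transcripts, the part of these cells in the level of any epithelial gene was not tested.

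The thymus controls differed among themselves. Krt8 was at 0.885 on average in controls 1 to 4 and 0.208 in controls 5 and 6, and Prss16 at 0.789 and 0.244. Epcam was also lowest in controls 5 and 6, within a narrow range. Aire did not part this way, since control 6 had the highest Aire and control 5 the lowest. Ccl25 was highest in controls 5 and 6. These shallower controls also had summed macrophage genes of 5.3 to 5.43, against 24.7 to 42.0 in controls 1 to 4, and granulocyte genes of 55.1 to 63.5 against 192.0 to 519.0. The part of sampling, depth or dissection was not tested. With controls 5 and 6 left out, the 4 genes called lower kept their calls in both comparisons, with Krt8 at -0.81 (adjusted p = 1.66e-05) and -0.85 (adjusted p = 0.000421).

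**Figure D5:**
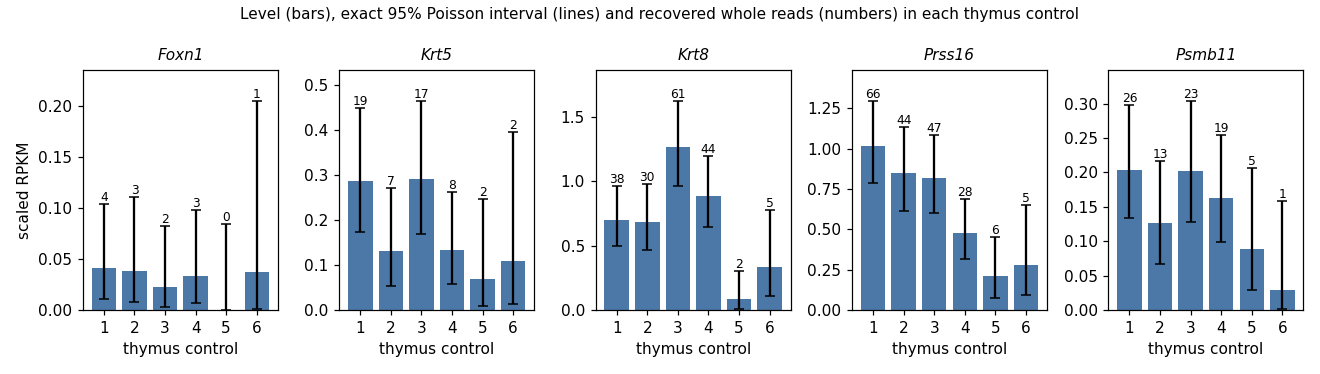
Level in scaled RPKM (bars) of Foxn1, Krt5, Krt8, Prss16 and Psmb11 in each of the 6 thymus controls, with the exact 95% Poisson interval of the recovered reads (lines) and the reads themselves (numbers). Controls 5 and 6 hold 2 and 5 reads of Krt8 where controls 1 to 4 hold 30 to 61, and their intervals are wide.

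Across the 6 controls 28 pairs of the 8 genes were compared. By exact permutation, 2 pairs had an adjusted p under 0.05 for Pearson's r. These were Krt5 with Epcam (r = 0.92, adjusted p = 0.0389, rho = 0.94, adjusted p = 0.156) and Prss16 with Il7 (r = 0.91, adjusted p = 0.0389, rho = 0.99, adjusted p = 0.156). For Spearman's rho 0 pairs passed. With the 2 controls farthest from the median left out, r was 0.67 and 0.69, so both relations rest in part on those controls. Genes whose level ran closely with that of Foxn1 over all 23 libraries, among 11292 compared, were Sp6 (r = 0.844), Tnfrsf25 (0.842), Cd79a (0.836) and Rhobtb2 (0.823). Foxn1 was at 0 in 14 of 17 leukemic spleens, so these r values carry the difference between thymus and leukemic spleen. Over the 6 controls, among 9831 genes, they were Ddx58 (r = 0.977), Irf7 (0.976), Shisa5 (0.975), H2-K1 (0.972) and Gbp5 (0.971). These are descriptions that rest on 13 Foxn1 reads in all of thymus, and the controls also differ in depth.

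The T-ALL groups, which differ in the Notch3 genotype of the donor thymus, were compared last. Between Notch3 KO T-ALL and WT T-ALL, 0 of the 8 genes were called by limma and 0 had an exact permutation p under 0.05. In this comparison 0.617% of the 11677 filtered genes (72) were called, and 0.71% of 18867 genes without the filter. The unadjusted p was under 0.05 for 994 of the filtered genes. The differences were 0.55 for Epcam (95% interval -0.313 to 1.4, adjusted p = 0.885), 0.087 for Ccl25 (interval -0.503 to 0.677, adjusted p = 0.997), -0.16 for Prss16 (interval -0.731 to 0.403) and -0.021 for Aire (interval -0.1 to 0.0581). The remaining 4 lay between -0.16 and -0.0035 on the log2 scale. With 3 libraries in the group, these intervals are wide for Epcam and Ccl25. All 3 have high Sco2, and against the WT T-ALL libraries with high Sco2 alone Ccl25 was lower by value (-0.36, adjusted p = 0.804), while the signs of the small differences of Prss16 (0.0063), Krt8 (0.027) and Il7 (0.0028) turned too. The count of 72 genes became 159 with the set as a term and 13 within the high set. Of the 7 receptor genes 0 were called. The study describes T-ALL cases and normal thymus as individual mice.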

How the data were processed

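The authors deposited 1 table of log2 values for all 23 libraries, made by them from RPKM. By the study's methods, reads from stranded mRNA libraries (KAPA) were mapped with the OSA aligner in ArrayStudio, and per the labels the build was mm10. Every column has an upper quartile close to 10 after 2^value - 1, so the deposited log2 values hold an offset of 1. Of the gene symbols, 27 that a spreadsheet had turned into dates were restored by gene identifier. Whole reads were looked for in the low values, within a tolerance of 0.1 read. The study's methods state an approximate depth common to all samples and none for single libraries.

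Here, genes that reached 1 in 3 or more libraries, as scaled RPKM, were fitted with limma 3.58.1 (trend and robust) in R 4.3.3, on the deposited scale. A gene is said to have passed through 1 tissue only where the other had fewer than 3 libraries at 1. Both comparisons with thymus came from 1 fit of all 3 groups, the third from the T-ALL groups alone, and genes under the filter from a fit of all genes with a value above 0. P-values were adjusted by Benjamini-Hochberg over the whole table, with a threshold of 0.05. Permutation tests were exact and two-sided (38760, 84 and 680 splits, Python 3.11.15, scipy 1.17.1). Scripts were tested on simulated data with 200 changed genes. The 8 genes and the lists were chosen with earlier results of these data known. All 8 were named throughout. Of each list the 2 highest tested genes in thymus and in T-ALL, and any gene of the cortical, medullary and receptor lists, could be named, with the 5 genes most like Foxn1, of which 1 over all libraries is not reported here. Other genes were named after their values were seen, as were the hepatocyte, kidney tubule, keratinocyte, granulocyte and pancreatic acinar lists and the sets by Sco2 (over or under 2 on the log2 scale). The fits without WT T-ALL 14 and 48, or without thymus controls 5 and 6, were not planned either. No 2 libraries held identical values (highest correlation 0.998). Positions are GENCODE on GRCm38.p6, promoters RefSeq on the same build. The comparison of Ccl25, Epcam and the others was repeated under other offsets, filters, scalings and sets of libraries.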

Additional observations from a re-analysis of the deposited data

How the results depend on the processing

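The direction and call of most results held under other settings. In the comparison with thymus, the count of 6150 genes called in WT T-ALL became 1709 within the libraries with high Sco2 alone and 2926 with the replicate number as a block, and the 4475 in Notch3 KO T-ALL became 2825 within the libraries with high Sco2 alone. Fewer libraries enter the fits within the high set, and the block leaves 4 residual degrees of freedom. Samples with the same number did not deviate together (correlations from -0.24 to 0.15), so the number is not a pairing. Under this replicate block Foxn1, Aire and Krt8 lost their calls in both comparisons (differences of -0.03, -0.22 and -0.67 in WT T-ALL, and -0.046, -0.28 and -0.79 in Notch3 KO T-ALL), which cannot be read as a weaker effect, and the count in Notch3 KO T-ALL was 3643. No paired analysis was possible between the T-ALL groups because they share 1 number. Leaving out 1 replicate at a time, the counts ran from 5431 to 6313, from 2859 (without Notch3 KO T-ALL 3) to 4292, and between the T-ALL groups from 3 (without Notch3 KO T-ALL 2) to 205 (without Notch3 KO T-ALL 1). It was 12 without Notch3 KO T-ALL 3 and 158 without WT T-ALL 108. That last count, 72 as reported, was 134 with no filter, 6 with a filter of 5, 39 and 2 with offsets of 0.1 and 0.01, 254 with all 3 groups in the fit, 159 with the Sco2 set as a term and 13 within the libraries with high Sco2. Epcam in Notch3 KO T-ALL against thymus lost its call with offsets of 0.1 (-2.0, adjusted p = 0.0618) and 0.01 (-2.22, adjusted p = 0.113), with the Sco2 set as a term and within the high set (-1.04 each), and ranged from -1.73 to -0.73 without 1 replicate. Ccl25 turned sign against thymus with quantile normalization (-0.023 and -0.0028), equal sums (-0.18 and -0.13), and, in Notch3 KO T-ALL, with the Sco2 set as a term (-0.22) and within the high set (-0.25). Between the T-ALL groups Ccl25 became -0.36 under both of the latter, and ran from -0.099 to 0.3 without 1 replicate. Prss16 was called lower in WT T-ALL with an offset of 0.1 (-1.29, adjusted p = 0.048), quantile normalization (-0.56, adjusted p = 0.0134) and equal sums (-0.48, adjusted p = 0.0364), and in Notch3 KO T-ALL with quantile normalization and under the replicate block (-0.74, adjusted p = 0.0199). Krt5 was called lower against thymus with an offset of 0.01 (-2.79 and -4.01, adjusted p = 0.0161 and 0.0239) and, in Notch3 KO T-ALL, under the block (-0.28, adjusted p = 0.0463), and within the high set (-0.12 in both, adjusted p = 0.00952 and 0.00848), where thymus holds 4 reads and leukemic spleen 0. Signs of uncalled differences also turned for Il7 against thymus within the high set (0.014 and 0.017). Between the T-ALL groups they turned for Prss16 (0.0063) and Krt8 (0.027) and Il7 (0.0028) with the Sco2 set as a term and within the high set, for Krt8 (0.33) and Il7 (0.28) with an offset of 0.01, and for Krt8 without WT T-ALL 14 and 48 (0.034). Without 1 replicate, Krt8 there ran from -0.06 to 0.015 and Il7 from -0.0087 to 0.0065. The causes of these shifts were not tested. A fit by technical batch was not run, because the labels and column names give none.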
